A study of Mus musculus with 32 samples.

Results

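The interferon regulatory factor genes Irf1, Irf2, Irf3, Irf4, Irf5, Irf7, Irf8 and Irf9, chosen by family name, were 8 of the 21887 protein-coding genes in the gene table. Histone marks had been mapped by CUT&Tag, in which an antibody brings a transposase to the marked chromatin. The cells were a mouse bone marrow line immortalised with HoxB8 and grown in estrogen, and in every group the estrogen was taken away 48 h beforehand, so no group represents cells kept in the growth medium. The 4 genotypes were the double genotype (Asxl1 guide B2 with pMICH-CSF3R-T618I, 2 libraries per mark), CSF3R T618I (non-targeting guide with pMICH-CSF3R-T618I, 3 libraries), the Asxl1 guide (guide B2 with the empty pMICH vector, 3 libraries) and control (non-targeting guide with the empty vector, 2 libraries). All carried a guide and a vector. The guide is described as truncating Asxl1, a partner of the H2AK119ub-removing enzyme Bap1. CSF3R T618I is an overexpressed, ligand-independent form of the granulocyte colony-stimulating factor receptor. The labels do not say whether a genotype is 1 clone, or whether libraries came from separate cultures, so p-values here measure the spread between libraries, which may be technical.

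Interferon regulatory factors are transcription factors that share a DNA-binding domain reading GAAA-rich elements. IRF3, IRF5 and IRF7 are activated downstream of pathogen sensors and switch on interferon and cytokine genes. IRF9 is the DNA-binding subunit of the complex that answers type I interferon. IRF1 is induced by interferon gamma, and IRF2 can compete for the same sites. IRF4 and IRF8 act with partners such as PU.1. In the bone marrow, IRF8 directs progenitors towards monocytes and dendritic cells and restrains neutrophil output, and the mouse gene is known to be controlled by enhancers on both sides of it.

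Promoter sequences were available for all 8 genes from RefSeq (build GRCm38.p6, 250 bases before to 50 after a start). Shown are the promoters of Irf8 and Irf1, where the marks differed most, and of Irf4 and Irf5, the other members with H3K27me3. Capitals mark the interferon gamma activated site, GAS, searched on both strands as TTCNNNGAA, the element read by STAT dimers. The interferon-stimulated response element, ISRE, was searched as GAAA, any 2 bases and GAAA, also on both strands.
Irf8 promoter: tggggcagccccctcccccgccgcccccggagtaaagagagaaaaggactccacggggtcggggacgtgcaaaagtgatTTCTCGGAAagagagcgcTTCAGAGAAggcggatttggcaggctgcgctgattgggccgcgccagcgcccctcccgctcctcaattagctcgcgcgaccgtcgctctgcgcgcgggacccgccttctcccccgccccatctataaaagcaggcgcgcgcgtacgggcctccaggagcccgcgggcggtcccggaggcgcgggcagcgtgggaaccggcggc
Irf1 promoter: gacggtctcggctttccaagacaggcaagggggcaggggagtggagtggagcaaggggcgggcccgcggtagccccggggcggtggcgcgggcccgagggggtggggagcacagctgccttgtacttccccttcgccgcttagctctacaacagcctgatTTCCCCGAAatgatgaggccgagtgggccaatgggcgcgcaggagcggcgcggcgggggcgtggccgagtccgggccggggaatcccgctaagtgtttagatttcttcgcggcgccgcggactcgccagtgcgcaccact
Irf4 promoter: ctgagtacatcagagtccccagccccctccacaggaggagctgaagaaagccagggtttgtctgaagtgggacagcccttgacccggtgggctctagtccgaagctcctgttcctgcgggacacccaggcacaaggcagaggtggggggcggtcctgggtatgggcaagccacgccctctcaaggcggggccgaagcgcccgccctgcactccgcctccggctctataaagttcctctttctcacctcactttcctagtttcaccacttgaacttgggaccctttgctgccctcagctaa
Irf5 promoter: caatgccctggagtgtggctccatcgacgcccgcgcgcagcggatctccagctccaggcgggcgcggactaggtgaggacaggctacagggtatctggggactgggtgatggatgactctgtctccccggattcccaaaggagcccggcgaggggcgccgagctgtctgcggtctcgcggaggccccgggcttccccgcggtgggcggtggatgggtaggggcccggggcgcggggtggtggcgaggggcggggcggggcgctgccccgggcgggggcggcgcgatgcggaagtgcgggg
The Irf8 window (chr8:120736108-120736407, plus strand) held 2 GAS words, TTCTCGGAA at 171 and TTCAGAGAA at 153 bases before the start. Irf1 (chr11:53769764-53770063, plus strand) held 1, TTCCCCGAA, 90 bases before the start. The Irf2 window (chr8:46739495-46739794) held both elements, GAS as TTCCGAGAA and ISRE as GAAAATGAAA. No match to either word was in the windows of Irf3, Irf4 (chr13:30748983-30749282), Irf5 (chr6:29526375-29526674, which is not at the start given in the gene table), Irf7 and Irf9. Of 32851 such promoter windows, 8.30% held the GAS word and 3.44% the ISRE word, and a match is a description of the letters only. Irf8, Irf5 and Irf1 had 38, 35 and 32 CG dinucleotides in their windows, against 19 for Irf2, 18 for Irf3, 11 for Irf4, 9 for Irf9, 7 for Irf7 and a median of 7 over all windows.

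The files list peak positions only, with no height, score or read count, so every value below is the length, or the percent, of a window that lay in peaks. Sequencing depth is unknown. Peaks covered 4.73 to 53.0 Mb per library for H3K27me3, 11.8 to 39.1 Mb for H2AK119ub and 26.6 to 47.2 Mb for H3K4me1. For H3K27me3, Asxl1 guide replicate 2 stood apart at 53.0 Mb, with 4.73 and 12.4 Mb in replicates 1 and 3. The 3 CSF3R T618I libraries covered 31.3, 34.1 and 42.2 Mb, against 15.9 and 22.7 Mb in control. H3K4me1 peaks lay at 10 of 12 myeloid progenitor markers in both controls, and at 9 of them (Cd34, Spi1, Cebpa, Mpo, Elane, Prtn3, Myb, Runx1 and Csf3r) in every library. They lay at 1 of 5 B cell markers (Ebf1, with Pax5 and Cd79b at 0 in every library) and 1 of 5 T cell markers (Tcf7, with Cd3e, Cd3d, Cd3g and Lck at 0). Peaks were also found at 2 of 7 erythroid and megakaryocyte, 2 of 4 mast cell and basophil (Cpa3 and Mcpt8, in every library) and 1 of 3 fibroblast markers in both controls. Peak positions give no check of the edited Asxl1 gene. In peak lists from bulk cells, fewer cells with a mark and less of the mark per cell cannot be told apart.

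**Figure D1:**
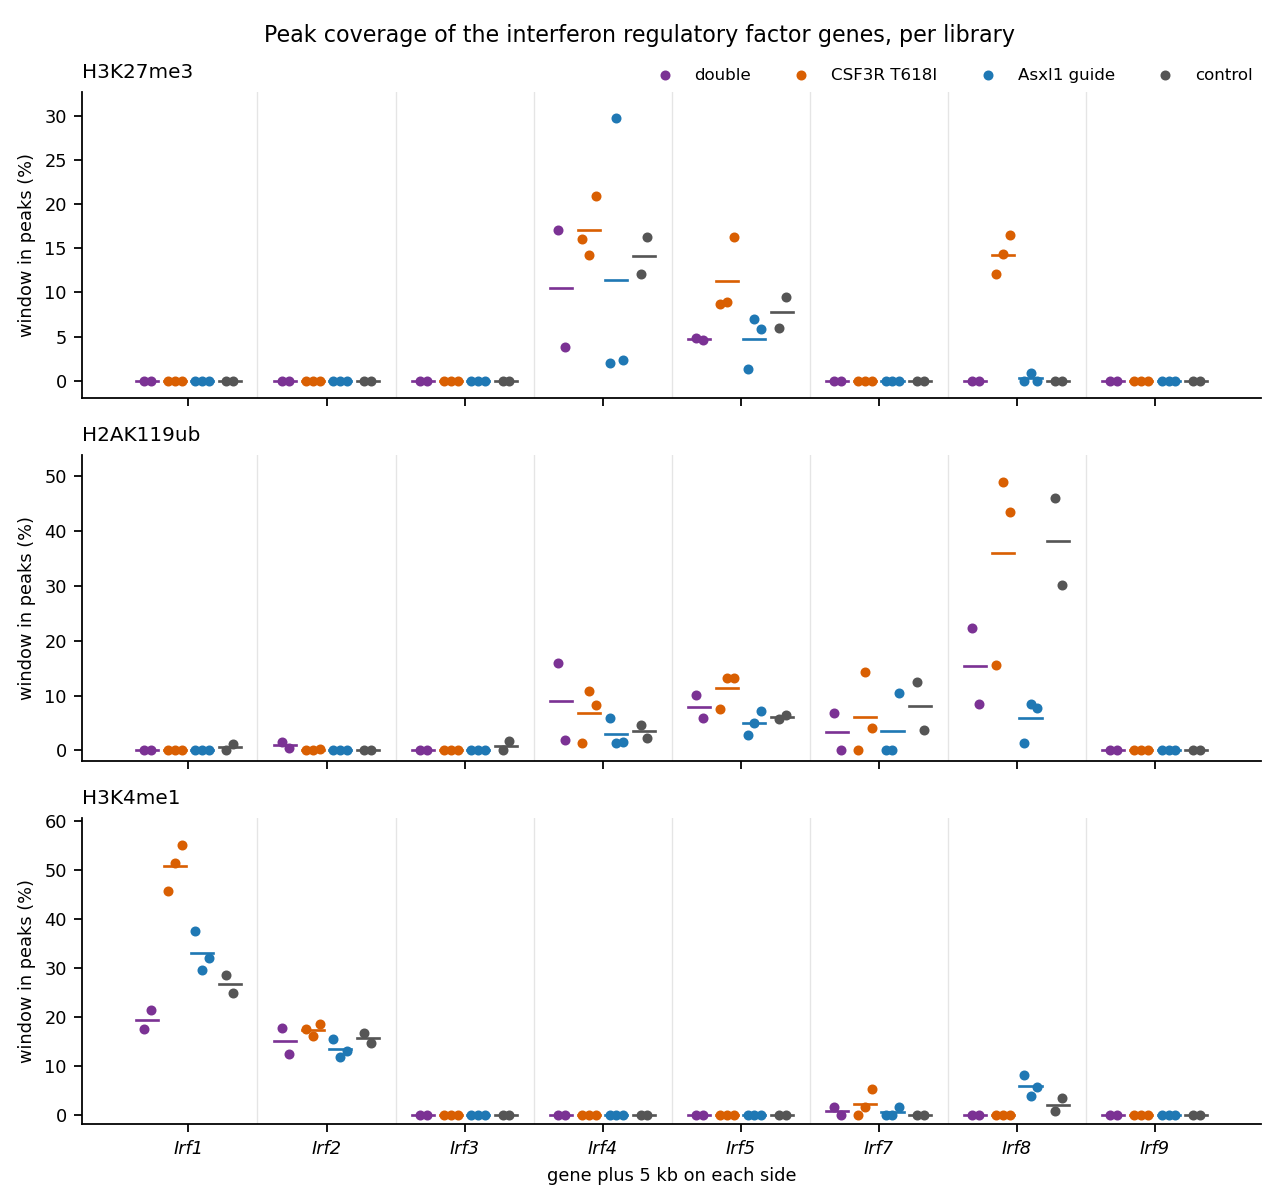
Percent of each gene plus 5 kb on each side that lay in peaks (vertical axis), for the 8 genes (horizontal axis) and 3 marks (panels); points are libraries, coloured by genotype, and short lines are group means. H3K27me3 at Irf8 stands at 12.0% to 16.5% in CSF3R T618I and at or near 0 elsewhere, and H3K4me1 at Irf1 is highest in CSF3R T618I and lowest in the double genotype.

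H3K27me3, the mark laid by Polycomb repressive complex 2, was found within 5 kb of 3 of the 8 genes: Irf8, Irf4 and Irf5. Irf1, Irf2, Irf3, Irf7 and Irf9 had no H3K27me3 peak in any of the 10 libraries. Irf8 (chr8:120736358-120756694, plus strand) gained the mark in CSF3R T618I cells, and the double genotype, which carries the same receptor with the Asxl1 guide, lacked it.

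At Irf8 the window had no H3K27me3 in either double library, 3650, 4350 and 5000 bp in the CSF3R T618I libraries, 0, 250 and 0 bp in the Asxl1 guide libraries, and none in either control. The CSF3R T618I libraries stood above every other library, and each had a single peak over the gene start, reaching from 2.0, 2.9 and 2.8 kb before it to 1.6, 1.5 and 2.2 kb past it. Asxl1 guide replicate 2, the library with the longest H3K27me3 coverage of all, had 250 bp here. CSF3R T618I exceeded control by 14.3 percentage points of the window (SE 1.25, 95% interval 11.3 to 17.2), with an adjusted p of 0.0042 in limma. Irf8 reached the 1000 bp needed for testing in the 3 CSF3R T618I libraries alone, so it entered the test only through the group in which it was high. The double genotype fell by 14.3 points relative to CSF3R T618I (SE 1.25, adjusted p = 0.00315 in limma). These 2 comparisons share the CSF3R T618I libraries, so their opposite signs are not independent. The interaction, which asks whether the Asxl1 guide changed coverage differently with CSF3R T618I than with the empty vector, was -14.6 points (SE 1.77, adjusted p = 0.0371). Both controls were at 0, so no lower value could have been seen with the guide and the empty vector, and the interaction restates the difference between double and CSF3R T618I libraries.

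Of all 5423 gene windows tested for H3K27me3, 3.6% were called for CSF3R T618I minus control, 9.88% for the double genotype minus CSF3R T618I and 0.221% for the interaction. Of the 3 members tested, 1 was called in each, Irf8. No member was called for the Asxl1 guide minus control (0% of windows called), the double genotype minus the Asxl1 guide (0.0922%) or the double genotype minus control (0.111%). In these, 0 of the 3 members had an unadjusted limma p under 0.05. All-gene median differences were 3.96 points for CSF3R T618I minus control and -5.01 points for the double genotype minus CSF3R T618I, in the same directions as at Irf8. With the covered length of each library as a covariate, the CSF3R T618I difference at Irf8 kept its call. It lost it without control replicate 1 (adjusted p = 0.0663) or replicate 2 (0.056). Both differences lost it when windows were scored for any peak instead of covered length (0.095 and 0.0735). The interaction kept its call in 3 of 10 refits that left out a library. It was lost without either control (0.24 and 0.217), either double library (0.195 and 0.222), Asxl1 guide replicate 1 (0.0879) or 3 (0.169), or CSF3R T618I replicate 2 (0.0877). It was also lost with a 10 kb window at the gene start (0.142).

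**Figure D2:**
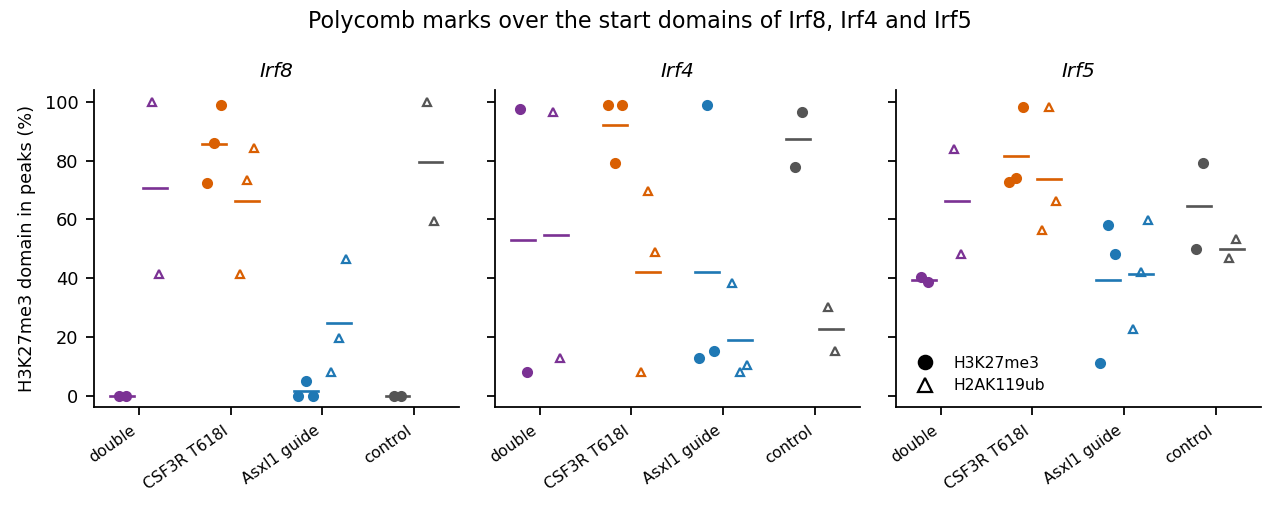
Percent of the H3K27me3 domain at the start of Irf8, Irf4 and Irf5 (the union of that mark's peaks over all libraries, vertical axis) that lay in H3K27me3 peaks (filled circles) or H2AK119ub peaks (open triangles), by genotype; points are libraries and lines are group means. At Irf8 the filled circles are high in CSF3R T618I alone, whereas open triangles are present in all 10 libraries.

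Irf4 and Irf5 carried H3K27me3 in every library. Irf4 (chr13:30749233-30766981, plus strand) is needed for plasma cells and for a subset of dendritic cells. It had 4750 and 1050 bp in the double genotype, 4450, 3950 and 5800 bp in CSF3R T618I, 550, 8250 and 650 bp with the Asxl1 guide, and 3350 and 4500 bp in control. The groups overlapped in all these comparisons, the widest spread being within the Asxl1 guide group. CSF3R T618I minus control was 2.91 points (SE 8.70, adjusted p = 0.889 in limma). Irf5 (chr6:29526130-29541869, plus strand) acts after MyD88 in macrophage cytokine induction. It had 1250 and 1200 bp in the double genotype, 2250, 2300 and 4200 bp in CSF3R T618I, 350, 1800 and 1500 bp with the Asxl1 guide, and 1550 and 2450 bp in control. Both double libraries lay below all CSF3R T618I libraries and below both controls, and the share of all windows apart in this way was not computed. The difference from CSF3R T618I was -6.57 points (SE 2.77), with an unadjusted p of 0.0496 and an adjusted p of 0.152 in limma, so it did not pass.

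The promoter windows printed above lay in this mark in different libraries. H3K27me3 overlapped the Irf8 window in 3 of 3 CSF3R T618I libraries and in none of the others, and the Irf4 window in all 10 libraries. It overlapped the Irf5 window in 1 of 2 double, 3 of 3 CSF3R T618I, 1 of 3 Asxl1 guide and 1 of 2 control libraries.

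H2AK119ub, laid by Polycomb repressive complex 1, was found at 7 of the 8 genes, with Irf9 at 0 throughout. Of these, 4 members (Irf4, Irf5, Irf7 and Irf8) passed the filter of at least 1000 covered bp in at least 2 libraries. Irf8 carried the most. It had 6750 and 2550 bp in the double genotype, 4700, 14850 and 13194 bp in CSF3R T618I, 400, 2550 and 2350 bp with the Asxl1 guide, and 13950 and 9150 bp in control. All 3 Asxl1 guide libraries lay below both controls, and so did both double libraries, while the CSF3R T618I libraries lay on both sides of the controls. Genome-wide, the Asxl1 guide libraries also covered less than the controls (11.8, 13.4 and 16.7 Mb, against 21.2 and 19.9 Mb). The double libraries covered more (39.1 and 22.6 Mb). The share of all windows with groups apart in this way was not computed. Mean coverage was 4.65 ± 2.97 kb in the double genotype (SD, n = 2), 10.9 ± 5.45 kb in CSF3R T618I (n = 3), 1.77 ± 1.19 kb with the Asxl1 guide (n = 3) and 11.6 ± 3.39 kb in control (n = 2).

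None of these H2AK119ub differences passed the test. For the Asxl1 guide minus control, Irf8 differed by -32.2 points (SE 10.4), with an unadjusted p of 0.0171 and an adjusted p of 0.152 in limma. Without CSF3R T618I replicate 1, the lowest of its group, the same difference had an adjusted p of 0.0376. The double genotype minus CSF3R T618I was -20.7 points (SE 10.4, adjusted p = 0.246). It passed only without that library (-30.9 points, 0.0318) or with covered length as a covariate (-28.3 points, 0.0448). The double genotype minus control was -22.7 points (adjusted p = 0.298). Counts of members called were 0 of 4 in limma in each comparison. The shares of all 6003 windows called were 2.95% for the Asxl1 guide minus control, with 1 of 4 members at an unadjusted p under 0.05, and 0.583% for CSF3R T618I minus control, also with 1 of 4. They were 7.86% for the double genotype minus CSF3R T618I (0 of 4 members at an unadjusted p under 0.05), 8.88% for the double genotype minus the Asxl1 guide (0 of 4), 6.15% for the double genotype minus control (0 of 4) and 0.383% for the interaction (0 of 4).

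Irf4, Irf5 and Irf7 were not called for H2AK119ub either. Irf4 had 4400 and 550 bp in the double genotype, 350, 3000 and 2300 bp in CSF3R T618I, 1650, 350 and 450 bp with the Asxl1 guide, and 1300 and 650 bp in control. Irf5 had 2600 and 1500 bp in the double genotype, 1950, 3400 and 3400 bp in CSF3R T618I, 700, 1300 and 1850 bp with the Asxl1 guide, and 1450 and 1650 bp in control. CSF3R T618I exceeded both controls at Irf5 (5.31 points, SE 2.24, unadjusted p = 0.0498, adjusted p = 0.419 in limma), without passing. With covered length as a covariate the double genotype minus CSF3R T618I was -5.30 points there (adjusted p = 0.0174). Irf7 (chr7:141263183-141266499, minus strand) amplifies type I interferon production. It had peaks in 1 of 2 double, 2 of 3 CSF3R T618I, 1 of 3 Asxl1 guide and 2 of 2 control libraries, at 499 to 1900 bp where present. At Irf2 the mark was found in both double libraries (1750 and 450 bp) and 1 CSF3R T618I library (200 bp), and at Irf1 and Irf3 in control replicate 2 alone (200 and 250 bp).

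H2AK119ub and H3K27me3 did not go together at the Irf8 start. Over the domain that H3K27me3 covered in any library (chr8:120733501-120738550, 5050 bp), H3K27me3 took 0% in both double libraries, 72.3%, 86.1% and 99.0% in CSF3R T618I, 0%, 4.95% and 0% with the Asxl1 guide and 0% in both controls. H2AK119ub took 100% and 41.6% of the same bases in the double genotype, 41.6%, 73.3% and 84.2% in CSF3R T618I, 7.92%, 19.8% and 46.5% with the Asxl1 guide, and 100% and 59.4% in control. Every library thus had H2AK119ub there, also those with no H3K27me3, and no library had H3K4me1 or an IgG peak there. At the Irf4 start (4300 bp) both marks were present in every library. In the double genotype H3K27me3 lay over 97.7% and 8.14% of the domain and H2AK119ub over 96.5% and 12.8%, so the same-numbered double libraries were high and low in both marks.

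**Figure D3:**
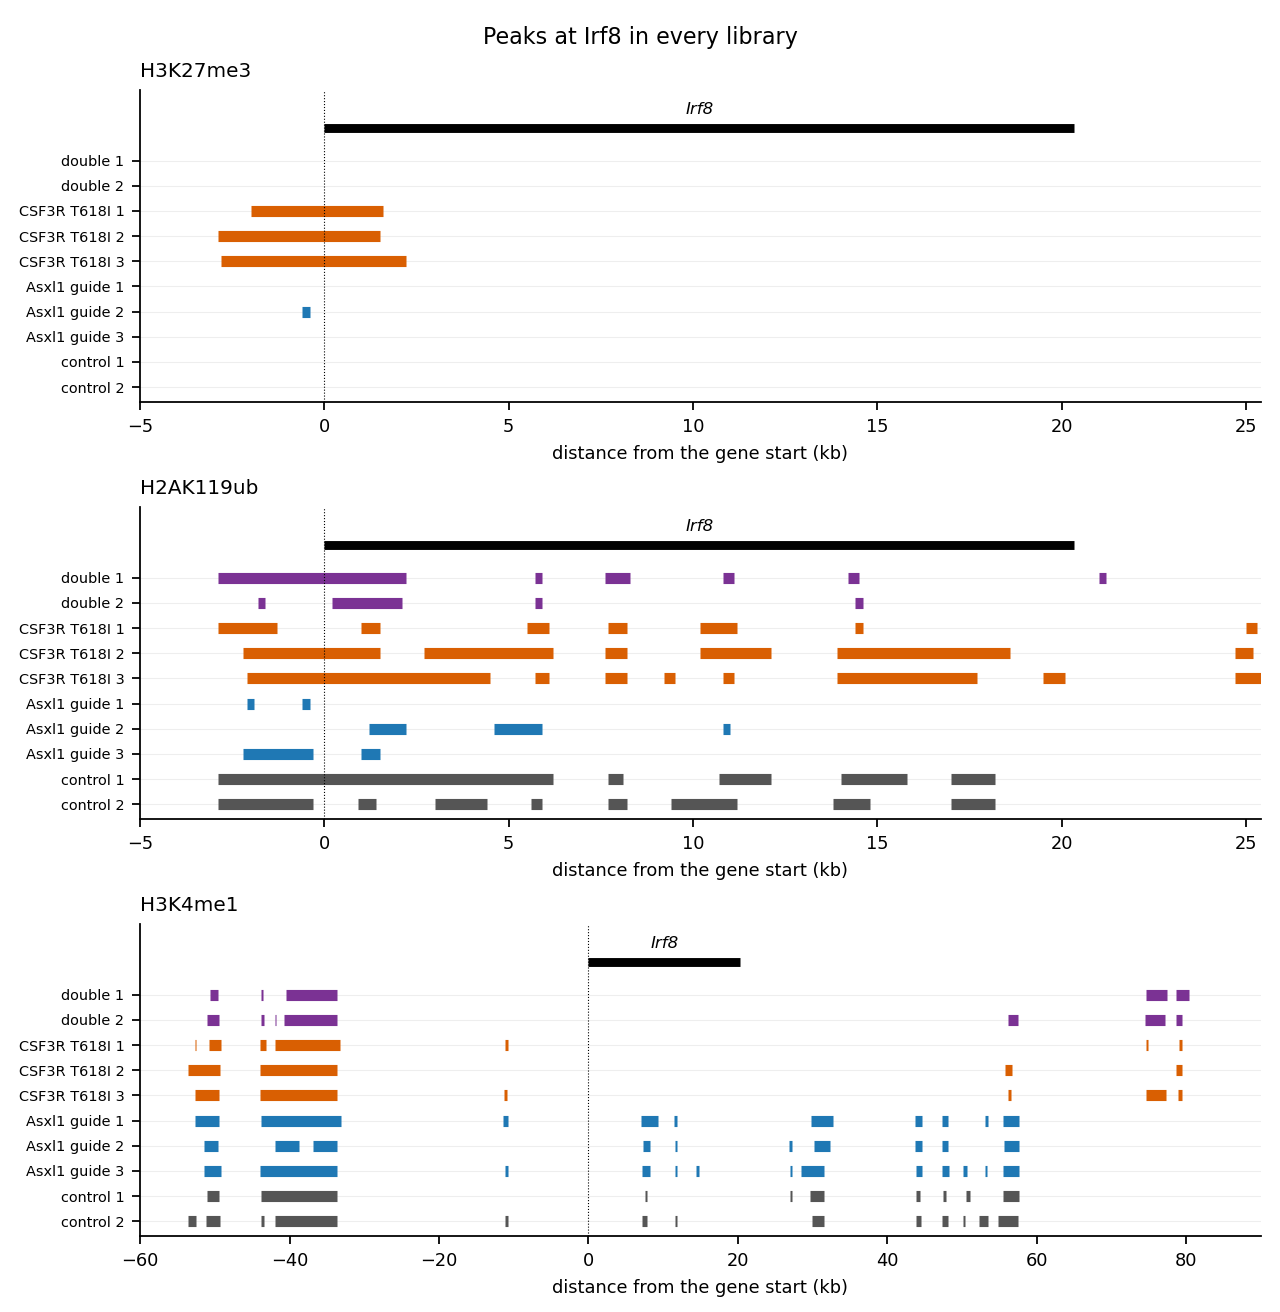
Peaks at Irf8 in each of the 10 libraries per mark (one line each), by distance from the gene start in kb; the black bar is the gene, drawn from its start at 0, and the lowest panel covers a wider range. H3K27me3 lies over the start in the 3 CSF3R T618I libraries, and H3K4me1 between the start and 60 kb past it lies mainly in the Asxl1 guide and control libraries.

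H3K4me1, a mark of enhancers and promoter flanks, was found within 5 kb of 4 of the 8 genes (Irf1, Irf2, Irf7 and Irf8), and 3 of them passed the filter. Irf1 (chr11:53770014-53778374, plus strand), the activator of MHC class I and antiviral genes, had the largest changes. Its window held 3211 and 3900 bp in the double genotype, 8361, 9411 and 10111 bp in CSF3R T618I, 6874, 5424 and 5874 bp with the Asxl1 guide, and 5224 and 4561 bp in control. No 2 genotypes overlapped: CSF3R T618I was highest, followed by the Asxl1 guide, control and the double genotype. How many of all windows had their groups apart like this was not computed.

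Mean coverage at Irf1 was 3.56 ± 0.49 kb in the double genotype (SD, n = 2), 9.29 ± 0.881 kb in CSF3R T618I (n = 3), 6.06 ± 0.742 kb with the Asxl1 guide (n = 3) and 4.89 ± 0.47 kb in control (n = 2). CSF3R T618I exceeded control by 24.0 points of the window (SE 3.27, adjusted p = 0.00648 in limma). The double genotype fell by 31.3 points relative to CSF3R T618I (SE 3.27, adjusted p = 0.00267) and by 13.6 points relative to the Asxl1 guide (SE 3.27, adjusted p = 0.0309). The interaction was -37.6 points (SE 4.63, adjusted p = 0.0136). Neighbours in the order of levels did not all differ by the test: the Asxl1 guide minus control was 6.34 points (adjusted p = 0.805) and the double genotype minus control -7.28 points (adjusted p = 0.212).

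The calls at Irf1 rested on few libraries in part. The rise in CSF3R T618I over control was lost without control replicate 2 (adjusted p = 0.0662), and the interaction without control replicate 1 (0.0643) or 2 (0.0825) or double replicate 1 (0.0606). The fall relative to the Asxl1 guide was lost in 7 of 10 such refits: without either control, Asxl1 guide replicate 1 or 3, CSF3R T618I replicate 2 or either double library (adjusted p from 0.0506 to 0.162). A 10 kb window centred on the gene start, which leaves out all bases more than 5 kb from the start, called none of the 4 differences (0.271, 0.063, 0.582 and 0.436 in the order given).

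Irf8 had little H3K4me1 near its own body: none in either double library, none in any CSF3R T618I library, 2450, 1150 and 1700 bp with the Asxl1 guide, and 200 and 1000 bp in control. The double genotype fell by 5.82 points relative to the Asxl1 guide (SE 1.31, adjusted p = 0.0255 in limma). The 1000 bp needed for testing was reached in the 3 Asxl1 guide libraries and control replicate 2. The call was lost without Asxl1 guide replicate 3 (0.0713) or double replicate 1 (0.106) or 2 (0.077), and with no filter on low windows (0.114). All 3 Asxl1 guide libraries lay above both controls (3.85 points, adjusted p = 0.554), without passing, and the share of all windows apart like this was not computed. Irf2 (chr8:46739745-46847458, plus strand) had H3K4me1 over a long part of its window in every library. It held 20858 and 14558 bp in the double genotype, 20614, 18808 and 21864 bp in CSF3R T618I, 18108, 13908 and 15258 bp with the Asxl1 guide, and 19508 and 17258 bp in control. Its groups overlapped in each comparison with control. CSF3R T618I minus control was 1.74 points (95% interval -2.48 to 5.95) and the double genotype minus CSF3R T618I -2.31 points (-6.53 to 1.90). Irf7 had H3K4me1 in 1 double, 2 CSF3R T618I and 1 Asxl1 guide library, at 200 to 700 bp. Irf3 (chr7:44997648-45002848, plus strand), a first responder to viral nucleic acids, Irf4, Irf5 and Irf9 (chr14:55603985-55610030, plus strand) had none within 5 kb in any library.

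Of all 5245 gene windows tested for H3K4me1, 7.47% were called for CSF3R T618I minus control, 8.85% for the double genotype minus CSF3R T618I and 0.934% for the interaction, and 1 of 3 members, Irf1, was called in each. For the double genotype minus the Asxl1 guide 16% of windows and 2 of 3 members were called, Irf1 and Irf8. No member was called in limma for the Asxl1 guide minus control (0.172% of windows), where 1 had an unadjusted p under 0.05, or for the double genotype minus control (15.7%), where 0 had.

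Extending the H3K4me1 window to 100 kb on each side left 6 members past the filter. Irf1 had 16950 and 17650 bp in the double genotype, 29700, 30550 and 36650 bp in CSF3R T618I, 22150, 18000 and 20650 bp with the Asxl1 guide, and 19300 and 20000 bp in control. CSF3R T618I exceeded control by 6.07 points of the window (SE 0.998, adjusted p = 0.0154 in limma). The double genotype fell by 7.20 points relative to CSF3R T618I (SE 0.998, adjusted p = 0.0181). The first call was lost without control replicate 1 (0.145) or 2 (0.119), and the second without either control (0.0515 each) or double replicate 1 (0.069). Irf2 had mean coverage of 21.4 kb in the double genotype, 31.1 kb in CSF3R T618I, 16.9 kb with the Asxl1 guide and 22.1 kb in control. The same 2 differences were 2.93 points (adjusted p = 0.143) and -3.14 points (adjusted p = 0.0956), neither passing. Both passed with covered length as a covariate (2.19 points, 0.0222, and -2.20 points, 0.0248). Irf8 had mean coverage of 13.3 kb in the double genotype, 15.4 kb in CSF3R T618I, 21.1 kb with the Asxl1 guide and 19.1 kb in control. The double genotype minus the Asxl1 guide was -3.52 points (adjusted p = 0.0891). That Irf8 difference passed with flanks of 50 kb (-8.77 points, 0.0143), with covered length as a covariate (-3.91 points, 0.036) and without Asxl1 guide replicate 2 (-4.71 points, 0.0171).

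Over the 13176 wide windows tested, 7.35% were called for CSF3R T618I minus control and 6.63% for the double genotype minus CSF3R T618I, with 1 of 6 members, Irf1, called in each. In the remaining comparisons 0 of 6 members were called in limma. For the Asxl1 guide minus control (0.00759% of windows called) and the double genotype minus control (12.6%), 0 members had an unadjusted p under 0.05. For the double genotype minus the Asxl1 guide (13.1%) and the interaction (0%), 1 member had.

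The wide windows hid changes of opposite sign, which merged H3K4me1 regions (peaks of all libraries joined where they touched, kept where at least 2 libraries had one) separated. A total of 62 such regions lay within 100 kb of a member: 14 at Irf1, 16 at Irf2, 2 at Irf3, 6 at Irf4, 2 at Irf5, 7 at Irf7, 14 at Irf8 and 1 at Irf9. Of these, 18 were called in at least 1 comparison, 8 of them at Irf8, 5 at Irf2, 3 at Irf1 and 1 each at Irf4 and Irf7. The share of all 22842 regions called in at least 1 comparison was not computed, so these are counts only. Shares for single comparisons follow. For CSF3R T618I minus control 9 of 62 were called, 5 higher and 4 lower, where 8.77% of all 22842 regions were. For the double genotype, 4 were lower than CSF3R T618I (9.6% of all regions called), 5 higher and 7 lower than the Asxl1 guide (17.1%), and 4 higher and 4 lower than control (18%). The interaction was called at 2 regions, both lower (4.21%). For the Asxl1 guide minus control limma called 0 of 62 (0.994% of all regions). Of the 62, 5 had an unadjusted p under 0.05.

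**Figure D4:**
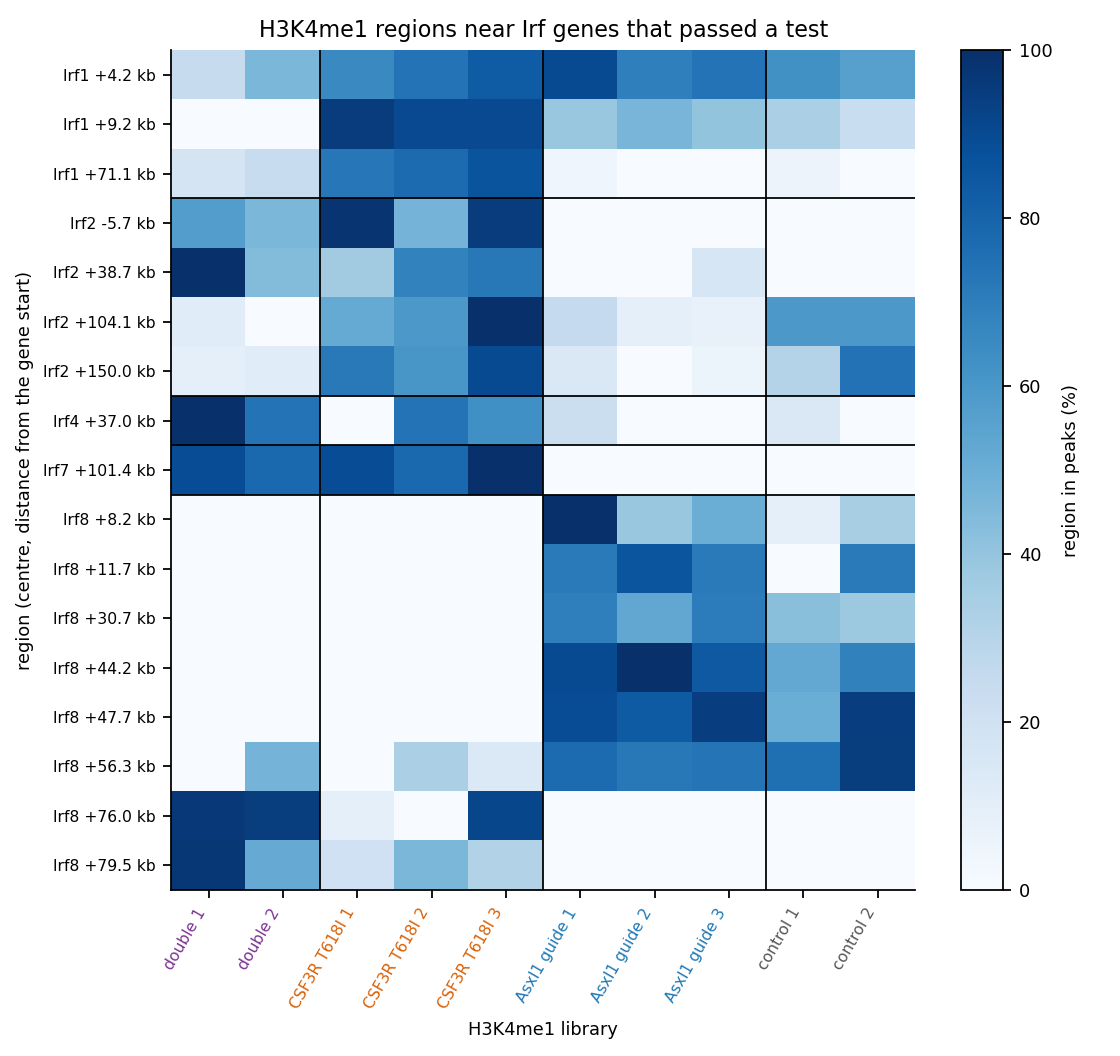
Percent of each of 17 called H3K4me1 regions (lines, named by gene and by distance of the region's centre from the gene start) that lay in peaks in each of the 10 libraries (columns, grouped by genotype); darker is higher. The regions from 8.2 to 47.7 kb past the Irf8 start are empty in double and CSF3R T618I libraries, and those at 76.0 and 79.5 kb are empty in Asxl1 guide and control libraries.

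At Irf8, H3K4me1 changed in 2 neighbouring stretches in opposite directions. Between the gene start and 60 kb past it, coverage was 0 and 1350 bp in the double genotype, 0, 950 and 400 bp in CSF3R T618I, 9700, 7600 and 9500 bp with the Asxl1 guide, and 6000 and 8350 bp in control. Libraries with CSF3R T618I, with or without the guide, thus lay below all libraries with the empty vector. From 70 to 85 kb the order was turned round, with 4450 and 3600 bp in the double genotype, 600, 800 and 3150 bp in CSF3R T618I and 0 bp in all Asxl1 guide and control libraries. An upstream stretch, 60 to 30 kb before the start, was covered in every library, by 8000 and 9200 bp in the double genotype, 11350, 14550 and 13550 bp in CSF3R T618I, 14050, 8250 and 12600 bp with the Asxl1 guide, and 11850 and 11650 bp in control. These stretches were drawn after the peaks had been seen and carry no test of their own.

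The tests of single regions bear on the same bases, but the regions were built from these same peaks. A region empty in some genotypes was kept only through the genotypes in which it was high. Its calls against the empty genotypes are therefore no independent support for the stretches. The regions centred 44.2 kb (chr8:120780051-120781000) and 47.7 kb (chr8:120783651-120784550) past the Irf8 start, with no overlapping gene in the table, were empty in all double and CSF3R T618I libraries. The first held 850, 950 and 800 bp with the Asxl1 guide and 500 and 650 bp in control, and the second 800, 750 and 850 bp with the Asxl1 guide and 450 and 850 bp in control. At 44.2 kb the double genotype differed by -91.2 points of the region from the Asxl1 guide (adjusted p = 0.000533 in limma) and by -60.5 points from control (0.00477). CSF3R T618I fell by 60.5 points relative to control (SE 8.88, adjusted p = 0.00536). At 47.7 kb the differences were -88.9 (adjusted p = 0.00268), -72.2 (0.0104) and -72.2 points (SE 12.7, 0.0114) in the same order, and all 6 calls held without each library in turn.

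Nearer the gene in the same stretch, the region at 30.7 kb (chr8:120764901-120769150) held no peak in double and CSF3R T618I libraries, 2950, 2250 and 3000 bp with the Asxl1 guide and 1800 and 1600 bp in control. The double genotype fell by 64.3 points relative to the Asxl1 guide (adjusted p = 0.00197 in limma), a call that held without each library. Both the double genotype (-40.0 points, 0.0235) and CSF3R T618I (-40.0 points, SE 8.60, 0.0263) were lower than control, calls lost without either control (adjusted p up to 0.0831 and 0.111). At 56.3 kb (chr8:120791201-120794050) coverage was 0 and 1350 bp in the double genotype, 0, 950 and 400 bp in CSF3R T618I, 2200, 2050 and 2100 bp with the Asxl1 guide and 2150 and 2700 bp in control. Both genotypes with CSF3R T618I were again lower than control (-61.4 points, 0.0435, and -69.3 points, SE 15.7, 0.0324). Each of these 2 calls was lost in 7 of 10 refits that left out a library, those without either control, any Asxl1 guide library, CSF3R T618I replicate 3 and, in turn, double replicate 1 or CSF3R T618I replicate 1, with adjusted p up to 0.186 and 0.179.

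Within the gene, the region at 8.2 kb (chr8:120743451-120745650) held 2200, 850 and 1100 bp with the Asxl1 guide, 200 and 750 bp in control and nothing in the other libraries. The double genotype was lower than the Asxl1 guide (-62.9 points, adjusted p = 0.0431 in limma). That call was lost in 8 of 10 refits that left out a library, all but those without Asxl1 guide replicates 1 and 2 (adjusted p up to 0.177). A short region at 11.7 kb (chr8:120747901-120748250) was called in the same comparison (-76.2 points, 0.0245). Of its 350 bp, 300 lay in IgG peaks, and the call was lost once those bases were removed (0.512), as it was without any double or Asxl1 guide library (up to 0.124).

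On the far side, the region at 76.0 kb (chr8:120810901-120813750) held 2750 and 2700 bp in the double genotype, 250, 0 and 2600 bp in CSF3R T618I and none in Asxl1 guide and control libraries. It was higher in the double genotype than with the Asxl1 guide (95.6 points, adjusted p = 0.0296 in limma) and than in control (95.6 points, 0.0408). Each call was lost without either double library, either control or any Asxl1 guide library (adjusted p up to 0.157 and 0.16). Its neighbour at 79.5 kb (chr8:120815001-120816750) held 1700 and 900 bp in the double genotype, 350, 800 and 550 bp in CSF3R T618I and none in the libraries with the empty vector. Both regions thus entered the test only through libraries with CSF3R T618I. The double genotype was 74.3 points above the Asxl1 guide (adjusted p = 0.00924, kept without each library) and 74.3 points above control (0.0137, lost without either control, up to 0.066). The upstream regions of Irf8, centred 51.4 kb (chr8:120682801-120687200) and 38.5 kb (chr8:120692501-120703300) before the start, were in peaks in all 10 libraries and were called in no comparison. At 38.5 kb the region held 7000 and 7650 bp in the double genotype, 9450, 10300 and 10200 bp in CSF3R T618I, 10700, 6300 and 10250 bp with the Asxl1 guide, and 10100 and 8700 bp in control.

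**Figure D5:**
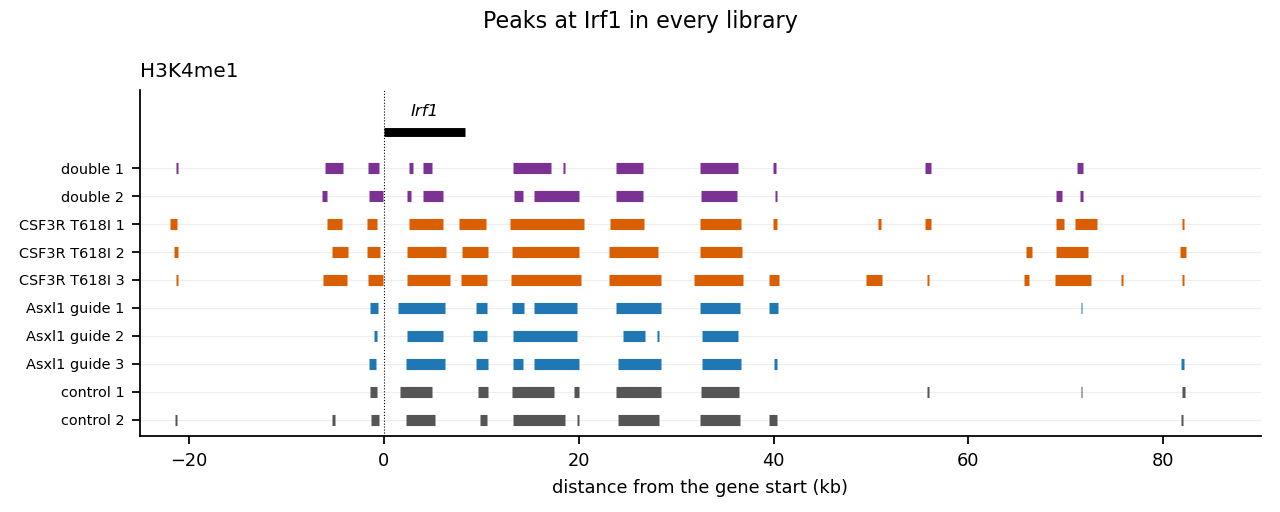
H3K4me1 peaks at Irf1 in each of the 10 libraries (one line each), by distance from the gene start in kb; the black bar is the gene, drawn from its start at 0. Peaks of the region centred at 9.2 kb, at and past the end of the gene, are absent from both double libraries and longest in CSF3R T618I.

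At Irf1 the called regions lay in the gene body, at and past the far end of the gene and at a distant downstream site. Some uncalled regions also had more coverage in every CSF3R T618I library than in both controls. Examples are 5.0 kb before the start (1500 to 2400 bp, against 0 to 350 bp) and 16.8 kb past it (6750 to 7450 bp, against 4850 to 5450 bp). The share of all regions with these groups apart was not computed. The region centred 9.2 kb past the start (chr11:53777701-53780700), overlapping the gene's end, was empty in both double libraries and held 2850, 2700 and 2700 bp in CSF3R T618I, 1150, 1400 and 1200 bp with the Asxl1 guide, and 1000 and 700 bp in control. Only the CSF3R T618I peaks, beginning 7.7 to 8.0 kb past the start, reached the gene, which is 8361 bp long. Peaks of the Asxl1 guide and control libraries began 9.2 to 9.9 kb past the start, beyond the gene's end. CSF3R T618I exceeded control by 63.3 points (SE 7.97, adjusted p = 0.00273 in limma). The double genotype fell by 91.7 points relative to CSF3R T618I (adjusted p = 0.000418) and fell by 41.7 points relative to the Asxl1 guide (0.00999). The interaction was -105 points (SE 11.3, adjusted p = 0.00369), and these 4 calls held without each library in turn and in the other settings tried.

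The region at 71.1 kb (chr11:53838901-53843250) overlaps Gm12216 and lies 50.7 kb from the start of Slc22a5, the nearest protein-coding start. It held 750 and 1050 bp in the double genotype, 3150, 3350 and 3750 bp in CSF3R T618I, 200, 0 and 0 bp with the Asxl1 guide, and 250 and 0 bp in control. CSF3R T618I was 75.7 points above control (SE 8.28, adjusted p = 0.0017 in limma) and the double genotype fell by 57.9 points relative to CSF3R T618I (0.00362), both kept without each library. The interaction of -56.5 points (SE 11.7, 0.0357) was lost without either control or any Asxl1 guide library (adjusted p up to 0.0884), and where a region had to be seen in at least 3 libraries (0.117). Within the gene body, the region at 4.2 kb (chr11:53771501-53776850) was covered in all libraries, by 1300 and 2450 bp in the double genotype, 3500, 3950 and 4450 bp in CSF3R T618I, 4800, 3700 and 3950 bp with the Asxl1 guide and 3350 and 3000 bp in control. The double genotype, lowest of the 4, fell by 42.5 points relative to the Asxl1 guide (SE 10.9, adjusted p = 0.0321), a call lost without double replicate 1 or Asxl1 guide replicate 1 or 3 (adjusted p up to 0.121).

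The called regions of Irf2 described here fell into 2 patterns. At 5.7 kb before the start (chr8:46732551-46735600, overlapping Gm16675) the mark was in both double libraries (1750 and 1400 bp) and all CSF3R T618I libraries (3000, 1450 and 2900 bp) and in no Asxl1 guide or control library. This region thus entered the test only through libraries with CSF3R T618I. CSF3R T618I exceeded control by 80.3 points (adjusted p = 0.0149 in limma, lost without either control, up to 0.0885). The intragenic region at 38.7 kb (chr8:46777801-46779050) likewise held 1250 and 550 bp in the double genotype and 450, 850 and 900 bp in CSF3R T618I, against 0, 0 and 200 bp with the Asxl1 guide and none in control. The double genotype exceeded the Asxl1 guide by 66.7 points (adjusted p = 0.0363) and control by 72.0 points (0.0377). Both calls were lost in 7 of 10 refits, those without either control, any Asxl1 guide library, CSF3R T618I replicate 2 or double replicate 1, with adjusted p up to 0.19 and 0.144.

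In the second pattern the double genotype was low. The region at the far end of Irf2, 104.1 kb past the start (chr8:46841901-46845850), held 450 and 0 bp in the double genotype, 2050, 2350 and 3950 bp in CSF3R T618I, 1000, 350 and 300 bp with the Asxl1 guide, and 2350 and 2350 bp in control. The downstream region at 150.0 kb (chr8:46887751-46891650) held 350 and 450 bp in the double genotype, 2800, 2350 and 3500 bp in CSF3R T618I, 550, 0 and 200 bp with the Asxl1 guide, and 1200 and 2900 bp in control. The double genotype minus CSF3R T618I was -64.8 points at the first (adjusted p = 0.0304 in limma) and -63.7 points at the second (0.0296). Both calls were lost without either double library or Asxl1 guide replicate 3, the first also without either control or Asxl1 guide replicate 2 (adjusted p up to 0.116), and the second also without CSF3R T618I replicate 1 or 3 (up to 0.11) and with covered length as a covariate (0.0543).

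The remaining members had few H3K4me1 regions. Near Irf7, a 450 bp region inside the ribonuclease inhibitor gene Rnh1 (chr7:141164851-141165300) held 400 and 350 bp in the double genotype, 400, 350 and 450 bp in CSF3R T618I and none in any Asxl1 guide or control library. It was higher in the double genotype than with the Asxl1 guide (83.3 points, adjusted p = 0.000871 in limma) and than in control (83.3 points, 0.00141). CSF3R T618I exceeded control too (88.9 points, 0.00157 in limma), and all 3 calls held without each library. Only libraries with CSF3R T618I had peaks here, so the region entered the test through the groups in which it was high. That its calls held is thus no independent support. Downstream of Irf4, at 37.0 kb (chr13:30785551-30786900, of which 300 bp lay in IgG peaks), coverage was 1350 and 1000 bp in the double genotype, 0, 1000 and 850 bp in CSF3R T618I, 300, 0 and 0 bp with the Asxl1 guide and 200 and 0 bp in control. The double genotype exceeded the Asxl1 guide by 79.6 points (0.0388), a call lost in 8 of 10 refits, those without any library other than CSF3R T618I replicates 1 and 2, with adjusted p up to 0.239, and with covered length as a covariate (0.0608). The 1 region of Irf9, the 2 of Irf3 and the 2 of Irf5 were not called.

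Genes with H3K27me3 patterns most like that of Irf8 were sought by Pearson correlation over the 10 libraries among 5201 gene windows. The points share their libraries, genotypes and coverage. The 5 closest were Kdm6b (r = 0.999), which encodes an H3K27 demethylase, Cnn3 (0.999), Dok4 (0.998), Ptprf (0.998) and Ltbp3 (0.997). Their mean coverage in CSF3R T618I was 6.38%, 5.72%, 25.2%, 5.90% and 12.4% of the window, with at most 0.54% as a mean in any other genotype. This shape follows from choosing genes by likeness to Irf8 and is no separate result.

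The pathway around these factors was read from 4 gene lists. Of the 16 interferon receptor and signalling genes, 12 were tested for H3K4me1. In the double genotype the type I interferon receptor subunit Ifnar2 was lower than in CSF3R T618I (4.21 ± 0.991%, n = 2, and 13.7 ± 2.54%, n = 3; -9.48 points, adjusted p = 0.0137 in limma) and than in control. The feedback inhibitor Socs3 was lower in the double genotype than in each of the other 3 genotypes, with 69.0 ± 1.74% in the double genotype and 80.4 ± 3.12% in CSF3R T618I (-11.4 points, 0.0231). Socs1, another feedback inhibitor, was higher in the double genotype than with the Asxl1 guide (18.7 ± 6.63% and 2.84 ± 2.77%, adjusted p = 0.0376). Of all windows, 16% were called for the double genotype minus the Asxl1 guide and 15.7% for the double genotype minus control. The calls of single genes in those comparisons are therefore not read as a result about the list. For the double genotype minus CSF3R T618I, 2 of 12 were thus called, both lower, where 8.85% of all windows were called in either direction, and the list's median difference was -2.72 points beside -1.31 points over all windows. Of the list, 1 gene was tested for H3K27me3 and 3 for H2AK119ub, and none was called.

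Of 17 sensor and adaptor genes in the table, 8 were tested for H3K4me1. Myd88, the adaptor upstream of IRF5 and IRF7, was higher in CSF3R T618I than in control (10.7 ± 2.50% and 0.71 ± 1.0%, adjusted p = 0.0279 in limma), the only call of the 8 in that comparison, where 7.47% of all windows were called (list median -0.015 points, all windows 0.499). Ticam1, the adaptor that leads from Toll-like receptors to IRF3, was lower in the double genotype than in CSF3R T618I (3.44 ± 2.41% and 31.7 ± 3.83%, adjusted p = 0.0188; 1 of 8 called, beside 8.85% of all windows, list median -2.60 points, all windows -1.31). Tbk1, the kinase that phosphorylates IRF3, was the 1 of 5 tested sensor genes called for H2AK119ub, higher in the double genotype (3.43 ± 0.492%) than with the Asxl1 guide, which was at 0 (0.0219; 8.88% of all windows were called). The 2 sensor genes tested for H3K27me3 were not called.

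Among 26 interferon-stimulated targets in the table, Isg15, a ubiquitin-like modifier, changed in H3K27me3. It had none in the double genotype, 47.8 ± 6.53% in CSF3R T618I and 20.2 ± 9.93% in control. It was called for CSF3R T618I minus control (27.6 points, adjusted p = 0.0379 in limma) and for the double genotype minus CSF3R T618I (-47.8 points, 0.00576), each 1 of 4 tested, where 3.6% and 9.88% of all windows were called. The list medians were 2.93 and -4.24 points beside 3.96 and -5.01 over all windows. Its H2AK119ub was lower with the Asxl1 guide (3.95 ± 3.43%) than in control (44.6 ± 2.48%; -40.6 points, 0.021), 1 of 4 tested, where 2.95% of all windows were called. For H3K4me1, 3 of 9 tested targets, Cxcl9, Cxcl10 and Ifit3, were lower in the double genotype than in CSF3R T618I, where 8.85% of all windows were called in either direction. The chemokine gene Cxcl10 had no H3K4me1 in either double library, 36.3 ± 16.8% in CSF3R T618I (adjusted p = 0.0462) and 58.9 ± 3.17% in control (0.00929). Ifit3 (10.8 ± 1.74% and 3.63 ± 2.01%, 0.0308) and Oas3 (3.42 ± 1.03% and 0, 0.0423) were higher in CSF3R T618I than in control. Of all windows, 7.47% were called for CSF3R T618I minus control and 15.7% for the double genotype minus control. The calls of single genes in those comparisons are not read as a result about the list. List medians for H3K4me1 were -2.77 points for the double genotype minus CSF3R T618I and 1.89 points for CSF3R T618I minus control, beside -1.31 and 0.499 over all windows.

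Of 26 IRF8 and IRF4 partners and myeloid targets, 18 were tested for H3K4me1. Csf1r, the receptor of the monocyte growth factor, had H3K4me1 over 5.06 ± 0.199% of its window in the double genotype, 8.44 ± 3.18% in CSF3R T618I, 13.5 ± 1.02% with the Asxl1 guide and 26.0 ± 0.795% in control. The double genotype minus control was -20.9 points (adjusted p = 0.00105 in limma) and CSF3R T618I minus control -17.6 points (0.00205). Cd74, the MHC class II invariant chain, and Irf2bpl, an IRF2-binding protein gene, were higher in CSF3R T618I than in control, Cd74 at 19.8 ± 4.16% and 0.931 ± 1.32% (0.00351) and Irf2bpl at 7.71 ± 1.31% and 0 (0.00981). This made 2 of 18 tested higher and 1 lower, where 7.47% of all windows were called, with a list median of 1.96 points beside 0.499 over all windows. In the double genotype minus control, Cd74, Irf2bpl and Prdm1 were higher and Csf1r lower (4 of 18 called, where 15.7% of all windows were; list median 2.07 points, all windows -0.555). Klf4, a monocyte factor, gained H3K27me3 in CSF3R T618I (28.8 ± 0.996%) over control (11.4 ± 1.38%; 17.4 points, 0.0253), the 1 call among 6 tested, where 3.6% of all windows were called. The list median was 13.3 points beside 3.96 over all windows. For H2AK119ub, 13 were tested: Spib was lower in the double genotype than in CSF3R T618I (12.9 ± 5.49% and 26.2 ± 1.71%, adjusted p = 0.0436 in limma) and Batf3 higher in the double genotype than in control (76.4 ± 5.68% and 46.7 ± 1.06%, 0.0407). Of all windows, 7.86% and 6.15% were called in these comparisons, so the calls are not read as a result about the list.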

How the data were processed

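CUT&Tag libraries of H3K27me3, H2AK119ub and H3K4me1 were analysed, 10 per mark in 4 genotypes, with 2 IgG libraries that the authors merged into 1 peak list. The deposited values are other than counts or normalised signal: start and end positions of peaks in bp. Per the submitters' processing notes, reads were handled with Bowtie2 2.4.1 and deepTools 3.5 on mm10; the program that called the peaks and its settings were not given in the sources used here. Among deposited peaks, the shortest peak was 200 bp, and widths went up in steps of 50 bp. Depth is unknown, so no counting interval can be given, and longer coverage may reflect deeper sequencing.

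The percent of each gene plus 5 kb (all marks) or 100 kb (H3K4me1) covered by peaks was computed for 21887 protein-coding genes of the RefSeq table (GRCm38.p6, the coordinates of mm10). H3K4me1 peaks were also merged into regions. Features with at least 1000 covered bp in at least 2 libraries were fitted per mark with limma 3.58.1 in R 4.3.3 (lmFit, contrasts.fit, eBayes, 1 mean per genotype, 2-sided; no such filter for regions), with Benjamini-Hochberg adjustment over all features of the mark and comparison. A call is an adjusted p under 0.05. The fit was tested on simulated data. In Python 3.11.15, alternatives covered windows, filters, any overlap, covered length as a covariate, IgG bases, the replicate number as a block and leaving out each library.

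Members, gene lists and tests were chosen with earlier results of these data known. The members and the called regions within 100 kb were named, except 1 region that is not reported here, with called genes of 4 lists, up to 4 per comparison, and the 5 genes most like a member with a called Polycomb mark. Windows of neighbouring genes overlap, and exons and introns were not annotated.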

Additional observations from a re-analysis of the deposited data

Results flagged for a closer look

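The interaction passed for H3K27me3 at Irf8 (-14.6 points, adjusted p = 0.0371 in limma). Both controls there were at 0 bp, so a lower value with the guide and the empty vector could not have been seen, and the interaction restates the higher coverage of the CSF3R T618I libraries. It passed for H3K4me1 at Irf1 (-37.6 points, 0.0136) and at the regions 9.2 kb (-105 points, 0.00369) and 71.1 kb (-56.5 points, 0.0357) past the Irf1 start. At 71.1 kb the controls held 250 and 0 bp, which left little room for a lower value.

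In other cases every library of one group moved one way and every library of the other the opposite way, but the test of the difference did not pass. These cases were picked because their groups did not overlap. The share of all windows or regions like them was not computed. The CSF3R T618I effect on H3K4me1 within 100 kb of Irf1 was positive without the guide and negative with it (-7.50 points, adjusted p = 0.276 in limma). At the region 4.2 kb past the Irf1 start the guide effect without and with CSF3R T618I, and likewise the CSF3R T618I effect without and with the guide, had opposite signs (-57.3 points, 0.0976). The guide effect at the region 16.8 kb past the Irf1 start was positive without and negative with CSF3R T618I (-39.6 points, 0.199). Groups of 2 and 3 libraries are too small for a check of single outlying libraries.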

How the results depend on the processing

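Of 45 differences called at members and their regions, none changed sign in 649 refits under other settings; 501 refits kept the call and 148 lost it. Of the 10 member differences, 2 kept the call without each library in turn and 2 in every other setting; of 35 region differences these were 17 and 25. Scoring windows for any peak, which discards width, called 0 members in place of 1 for H3K27me3 (CSF3R T618I minus control, double minus CSF3R T618I and the interaction). For H3K4me1 it called 0 in place of 1 (double minus CSF3R T618I and the interaction), 1 in place of 2 (double minus Asxl1 guide) and 1 in place of 0 (double minus control); Irf1 has a peak in all 10 libraries and could not be called that way, so its missing calls are no test. A 10 kb window at the gene start called 0 in place of 1 for the H3K27me3 interaction and 0 for H3K4me1 in CSF3R T618I minus control, double minus CSF3R T618I, double minus Asxl1 guide and the interaction; that window ends before the Irf1 region at 9.2 kb. With no filter, 0 in place of 2 members were called for H3K4me1 in double minus Asxl1 guide, with more features tested. Covered length as a covariate called 2 members in place of 0 for H2AK119ub in double minus CSF3R T618I (Irf5 and Irf8) and, in windows with 100 kb flanks, 2 in place of 1 for CSF3R T618I minus control and for double minus CSF3R T618I, and 1 in place of 0 for double minus Asxl1 guide and for the interaction. Flanks of 50 kb called 1 (Irf8) in place of 0 in double minus Asxl1 guide and in double minus control. Regions seen in at least 3 libraries gave 1 interaction call in place of 2. The cause of these moves was otherwise not tested.

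The labels do not say that equal replicate numbers pair the libraries. Deviations of same-numbered libraries of different genotypes had a mean correlation of -0.034 for H3K27me3 and -0.032 for H2AK119ub, beside 0.018 and 0.018 for other numbers. There 4 and 1 of 10 libraries correlated best with their own number. For H3K4me1 the mean was 0.178 beside -0.096, and 9 of 10 libraries correlated best with their own number. Deviations from a genotype's mean add up to 0, so the mean for other numbers largely mirrors that for same numbers. It is therefore no separate contrast, and the libraries are not independent in the counts of best matches. Same-numbered H3K4me1 libraries had correlations from -0.098 to 0.429. Whether they share a batch was not tested, and the main fit leaves it out. With the replicate number as a block, 0 members in place of 1 were called for the H3K27me3 interaction and the H3K4me1 interaction, 0 in place of 2 for H3K4me1 in double minus Asxl1 guide, and 2 regions in place of 4 for double minus CSF3R T618I (without Irf2 104.1 and 150.0 kb), 1 in place of 2 for the interaction (without Irf1 71.1 kb), 8 in place of 12 for double minus Asxl1 guide (without Irf2 38.7 kb, 0.0568, Irf8 8.2 kb, 0.0791, Irf1 4.2 kb, 0.0843, and Irf4 37.0 kb, 0.0873, adjusted p in limma), 8 in place of 9 for CSF3R T618I minus control (without Irf8 30.7 kb, 0.0565) and 7 in place of 8 for double minus control (without Irf2 38.7 kb, 0.0585).

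Leaving out each library in turn, members called ranged from 0 to 1 for H3K27me3 in CSF3R T618I minus control and the interaction, from 0 to 1 for H2AK119ub in Asxl1 guide minus control and double minus CSF3R T618I, from 0 to 1 for H3K4me1 in CSF3R T618I minus control and the interaction, from 0 to 2 in double minus Asxl1 guide, and, with 100 kb flanks, from 0 to 1 in CSF3R T618I minus control, double minus CSF3R T618I and double minus Asxl1 guide. Regions called ranged from 0 to 1 for Asxl1 guide minus control, 5 to 12 for CSF3R T618I minus control, 2 to 7 for double minus CSF3R T618I, 6 to 13 for double minus Asxl1 guide, 3 to 12 for double minus control and 1 to 6 for the interaction. Counts over all windows moved more, for H3K27me3 CSF3R T618I minus control to between 4 and 1209, beside 195. Shallow and deep libraries cannot be told apart from few and many marked sites.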
